A study of Homo sapiens with 4 samples.

Results

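The genes described here are MYC and 9 genes that code for its partner, its antagonists and the linked MLX arm, MAX, MXD1, MXI1, MXD3, MXD4, MNT, MLX, MLXIP and MGA. They were taken by gene symbol from a table of 27275 genes, and all 10 were among the 15840 genes with enough counts to be tested. RNA was sequenced from C4-2 cells, an androgen-independent prostate cancer line derived from LNCaP cells that has the androgen receptor. Cells transfected with a pool of siRNAs against RRM2, the small subunit of ribonucleotide reductase, gave 2 libraries, and cells transfected with a scrambled siRNA gave 2 libraries. RNA came from 1 cell line and 1 siRNA pool. The sources date the check of knockdown in days but not the harvest of the sequenced RNA, and do not state whether replicate libraries were grown as separate cultures. The p-values therefore reflect the spread between libraries alone, and that spread may be technical.

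MYC is a basic helix-loop-helix leucine zipper factor that binds DNA only as a dimer with MAX, at the E-box motif CACGTG, and then recruits acetyltransferases and elongation factors. MXD1, MXI1, MXD3, MXD4, MNT and MGA also pair with MAX and compete for it and for E-boxes. The MXD proteins and MNT bring in SIN3 and histone deacetylases, and MGA brings in a Polycomb complex. MLX is a second hub, which pairs with the glucose-responsive factor MLXIP, also called MondoA, and with some of the MXD proteins and MNT. MYC drives ribosome production, nucleotide synthesis and growth, is often gained in prostate cancer, and has an mRNA and a protein that turn over fast.

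The libraries held 28941206 to 29941671 counts with RRM2 siRNA and 27844121 to 28508906 with scrambled siRNA. RRM2 had 118 and 125 normalized counts with RRM2 siRNA, against 1333 and 1239 with scrambled siRNA, a log2 fold change of -3.41 (SE 0.08, adjusted p = 2.60e-13 by edgeR's quasi-likelihood test). A normalized count is a count scaled to the mean library size, with library sizes adjusted by TMM factors. Ribosomal RNA genes took 2.45% and 6.13% of the counts with RRM2 siRNA, against 2.14% in each scrambled siRNA library. All 10 prostate epithelial markers were detected, with KLK3 at 162560 and 158910 normalized counts with RRM2 siRNA and at 168550 and 179390 with scrambled siRNA. By edgeR, 1 of these 10 markers was higher with RRM2 siRNA and 4 were lower, beside 25.4% and 25.0% of all genes tested. Of 9 markers of other cells, 5 were tested, and CD68, COL1A1 and PECAM1 were higher. The 5 summed to 3082 to 3199 normalized counts with RRM2 siRNA and to 2645 to 2693 with scrambled siRNA. CD68 and COL1A1 held most of this sum, averaging 1816 and 1100 with RRM2 siRNA, where PECAM1 averaged 16.7. DESeq2 called only 1 of the 5 markers of other cells, CD68, higher. PTPRC, DCN, KRT5 and TP63 had at most 4 counts in any library. The part of ribosomal RNA and of these markers in the results was not tested. In such bulk RNA, fewer cells of a type and less RNA per cell cannot be told apart.

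With RRM2 siRNA, MYC fell by 63.0%, MXD1, MNT and MGA fell by less, MXD3 and MXD4 rose, and MAX, MXI1, MLX and MLXIP did not pass the test. At an adjusted p under 0.05 over all genes, 2 of the 10 were higher and 4 were lower, while 25.4% of all genes tested were higher and 25.0% were lower. The share of the 10 that was called is thus near that of all genes. When a fold change over 1.5 was also asked for, 0 of the 10 were higher and only MYC was lower, beside 5.9% and 5.25% of all genes. Of the 10, 2 were higher at an unadjusted p under 0.05, as they were by DESeq2 and by limma voom. The 6 calls each held in all 12 alternative fits, the removal of each library among them.

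**Figure D1:**
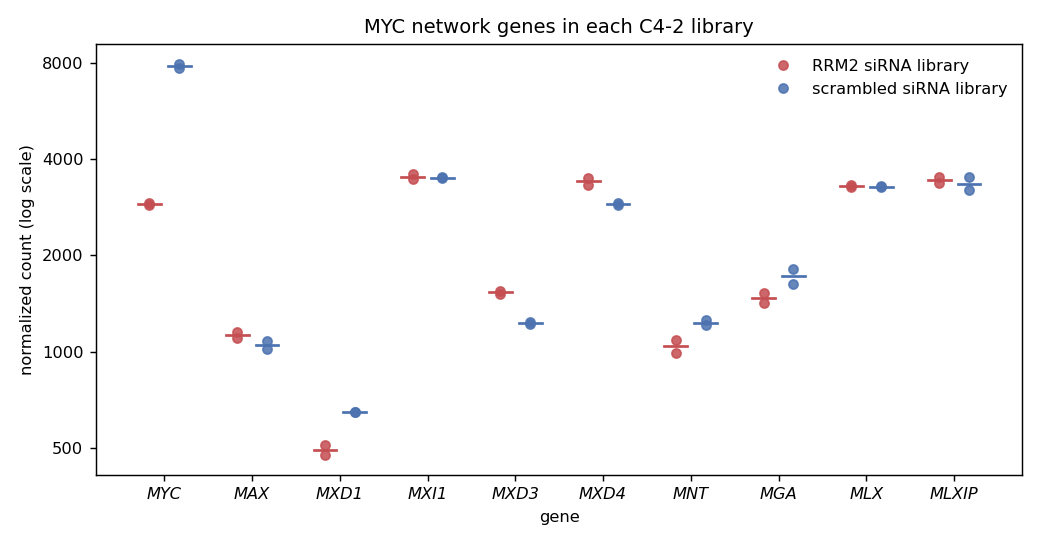
Normalized counts of the 10 genes on a log axis, with the genes along the horizontal axis; red points are the 2 RRM2 siRNA libraries, blue points to their right the 2 scrambled siRNA libraries, and short lines the group means. MYC averaged 2897 with RRM2 siRNA and 7830 with scrambled siRNA, while the libraries of both groups lie close together for MXI1, MLX and MLXIP.

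MYC lies on chromosome 8 at 127736069 to 127741434, on the + strand, in the coordinates of the table, which match GRCh38. It had 2885 and 2910 normalized counts with RRM2 siRNA, against 7955 and 7705 with scrambled siRNA. Both RRM2 siRNA libraries lay far below both scrambled siRNA libraries, and the gap was many times the spread within either group. The means were 2897 ± 17.5 with RRM2 siRNA and 7830 ± 177 with scrambled siRNA (SD, n = 2 each), which is 2.70-fold lower with RRM2 siRNA. The log2 fold change was -1.43 (SE 0.04, adjusted p = 2.05e-12 by edgeR's quasi-likelihood test), and it stayed between -1.46 and -1.42 in the 12 alternatives. Ordered by the size of the fall, MYC ranked 12 among the 12330 tested genes that averaged 100 normalized counts or more. It was also, of the 10 genes, the one with the most reads in scrambled siRNA cells.

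**Figure D2:**
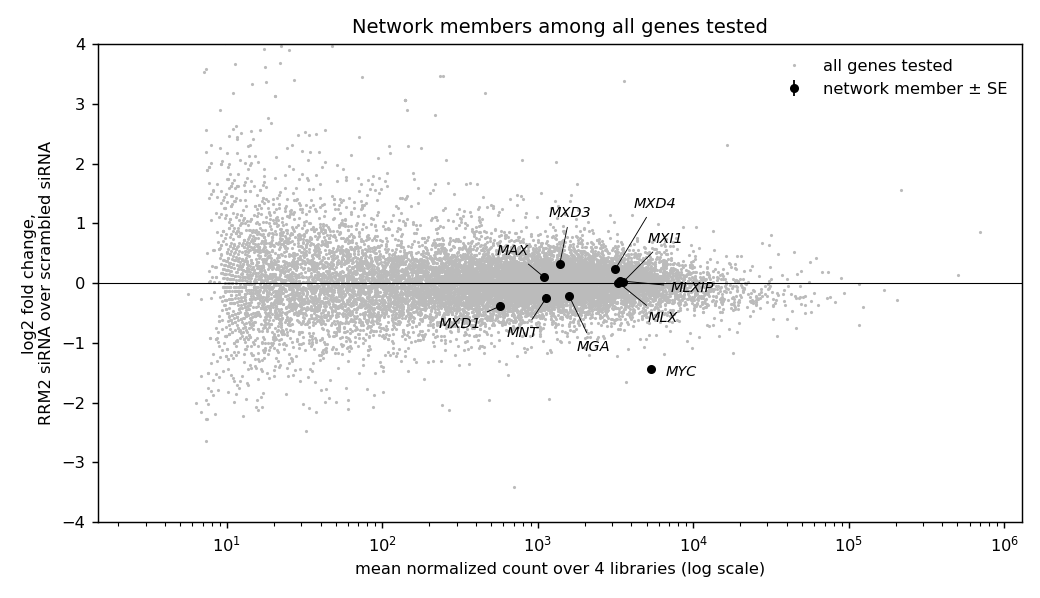
Each grey point is 1 of the tested genes, with its mean normalized count over the 4 libraries on a log axis and its log2 fold change, RRM2 siRNA over scrambled siRNA, on the vertical axis; black points are the 10 network genes with their SE, which is mostly smaller than the point, and 8 genes lie outside the vertical range. MYC lies at -1.43 among genes of high count, while the other 9 lie between -0.39 and 0.32, within the bulk of genes of like count.

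MAX, the obligate partner of MYC, lies on chromosome 14 at 65006101 to 65102695 on the - strand. It had 1155 and 1102 normalized counts with RRM2 siRNA, against 1020 and 1081 with scrambled siRNA. The groups did not overlap, but the gap between them was no larger than the spread within each, and the log2 fold change of 0.10 (SE 0.05) did not pass (adjusted p = 0.106 by edgeR). Without scrambled siRNA replicate 2 it was 0.14 and passed (adjusted p = 0.0388 by edgeR), while the adjusted p over the 12 alternatives ran up to 0.490. 

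Of the MXD genes, 2 rose, 1 fell and 1 did not pass. MXD3, best known from dividing cells, lies on chromosome 5 at 177305500 to 177312291 on the - strand. It had 1513 and 1553 normalized counts with RRM2 siRNA, against 1225 and 1237 with scrambled siRNA, a log2 fold change of 0.32 (SE 0.05, adjusted p = 5.21e-05 by edgeR). Both RRM2 siRNA libraries were above both scrambled siRNA libraries. MXD3 shares 731 exon bases with PRELID1 on the opposite strand, which averaged 5314 normalized counts and fell by 0.13 on the log2 scale (adjusted p = 0.0114 by edgeR). Whether reads were counted by strand is not given, so reads of this stretch cannot be told apart.

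MXD4, a repressor found in cells that leave the cycle, lies on chromosome 4 at 2247433 to 2262012 on the - strand. It had 3488 and 3327 normalized counts with RRM2 siRNA, against 2912 and 2878 with scrambled siRNA. Its RRM2 siRNA libraries were both the higher, with a log2 fold change of 0.24 (SE 0.04, adjusted p = 3.91e-04 by edgeR).

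MXD1, once called MAD and known for replacing MYC on MAX as myeloid cells differentiate, lies on chromosome 2 at 69915041 to 69942944 on the + strand. It had 513 and 475 normalized counts with RRM2 siRNA, against 647 and 648 with scrambled siRNA. Both RRM2 siRNA libraries were the lower, so MXD1 moved against MXD3 and MXD4, with a log2 fold change of -0.39 (SE 0.07, adjusted p = 1.53e-04 by edgeR). MXI1, another antagonist of this family, lies on chromosome 10 at 110207605 to 110287365 on the + strand. It had 3592 and 3456 normalized counts with RRM2 siRNA, against 3485 and 3519 with scrambled siRNA. Here the groups overlapped, and the log2 fold change was 0.01 (SE 0.04, adjusted p = 0.876 by edgeR).

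MNT and MGA, the large MAX partners present in most cells, both fell. MNT, on chromosome 17 at 2384060 to 2400964 on the - strand, had 1090 and 990 normalized counts with RRM2 siRNA, against 1255 and 1210 with scrambled siRNA. Its log2 fold change was -0.24 (SE 0.05, adjusted p = 0.00163 by edgeR), and its groups did not overlap. MGA, on chromosome 15 at 41660412 to 41769943 on the + strand, had 1421 and 1523 normalized counts with RRM2 siRNA, against 1813 and 1626 with scrambled siRNA. The scrambled siRNA libraries of MGA were the higher but lay apart from each other, and the log2 fold change was -0.22 (SE 0.06, adjusted p = 0.00412 by edgeR). MNT shares 1065 exon bases with AC006435.1 and MGA shares 510 with AC073657.1, both on the opposite strand and not among the counted genes. As with MXD3, reads of these stretches cannot be told apart. Over the 12 alternatives the highest adjusted p was 0.0402 for MNT and 0.0378 for MGA, so these are the 2 weakest of the 6 calls.

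The MLX arm did not move detectably. MLX, on chromosome 17 at 42567060 to 42573203 on the + strand, had 3279 and 3325 normalized counts with RRM2 siRNA, against 3292 and 3275 with scrambled siRNA. MLXIP, on chromosome 12 at 122078728 to 122147347 on the + strand, had 3379 and 3506 with RRM2 siRNA, against 3515 and 3196 with scrambled siRNA. For both genes the groups overlapped, with log2 fold changes of 0.01 (SE 0.04, adjusted p = 0.891) and 0.04 (SE 0.05, adjusted p = 0.568) by edgeR. MLX shares 770 exon bases with PSMC3IP on the opposite strand, a meiotic recombination cofactor with a mean of 334 normalized counts that rose by 0.78 on the log2 scale (adjusted p = 3.08e-06 by edgeR).

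To set the genes side by side, normalized counts were divided by the median length of each gene's coding transcripts, which gives normalized counts per kilobase (kb). In scrambled siRNA cells MYC had the highest level of the 10, and in RRM2 siRNA cells it came behind MXI1 and MAX. MYC averaged 1419 ± 8.55 per kb with RRM2 siRNA and 3834 ± 86.5 with scrambled siRNA (SD, n = 2 each). MXI1 averaged 1611 ± 43.9 and MAX 1475 ± 49.01 per kb with RRM2 siRNA. MLX followed at 1360 ± 13.3 and MXD3 at 1016 ± 18.9 per kb, also with RRM2 siRNA. The other genes were lower, down to MXD1 at 88.5 ± 4.77 per kb with RRM2 siRNA and 116 ± 0.0867 with scrambled siRNA. Of neighbours in this order, only MAX and MLX overlapped in scrambled siRNA cells, and the gap of MAX to MYC in RRM2 siRNA cells was about the SD of MAX. The order rests on the lengths, since with the longest transcript of each gene MAX moved to place 7 in both groups and MYC to place 2 in RRM2 siRNA cells.

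**Figure D3:**
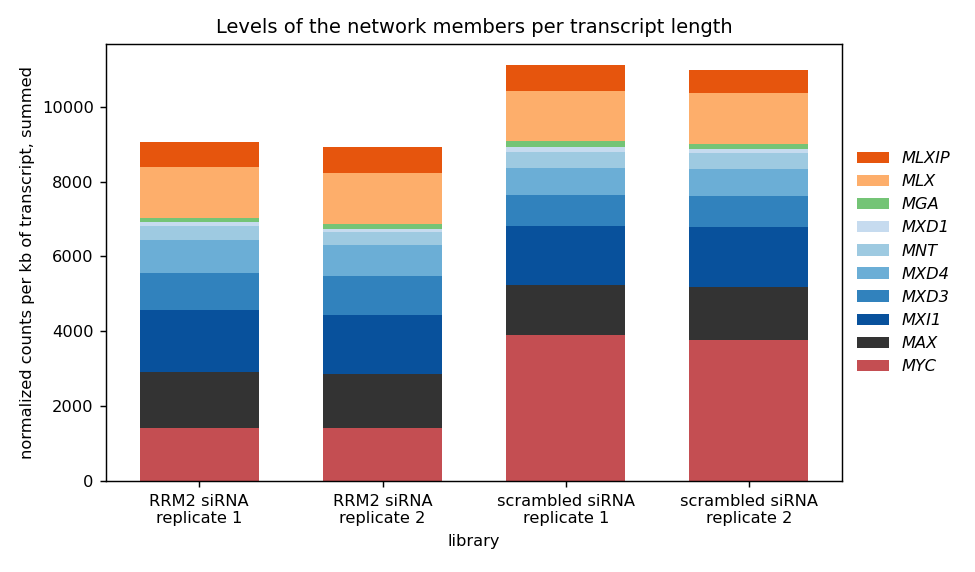
Each stacked bar is 1 library, RRM2 siRNA on the left and scrambled siRNA on the right, with the levels of the 10 genes summed in normalized counts per kb of median coding transcript length on an axis from 0; colours mark the genes. The MYC segment at the base averages 1419 with RRM2 siRNA and 3834 with scrambled siRNA, while each of the other segments changes less.

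The balance of antagonists to MYC was then computed in each library, as the summed per kb level of MXD1, MXI1, MXD3, MXD4 and MNT over that of MYC. It was 2.82 and 2.71 with RRM2 siRNA, against 0.947 and 0.977 with scrambled siRNA. The antagonist transcripts together were thus near the MYC level in scrambled siRNA cells and well above it in RRM2 siRNA cells. The ratio of the means was 2.88, and 2 against 2 libraries allow no p under 0.333 in a two-sided exact permutation test, so no test was made. Nearly all of this came from the denominator, since the antagonists summed to 3985 and 3868 per kb with RRM2 siRNA, against 3687 and 3685 with scrambled siRNA. MYC over MAX was 0.936 and 0.989 with RRM2 siRNA, against 2.92 and 2.67 with scrambled siRNA. MYC made up 15.63% and 15.98% of the summed level of the 10 genes with RRM2 siRNA, against 35.1% and 34.4% with scrambled siRNA. These are transcript levels, and protein was not measured in these libraries.

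The tested genes whose pattern over the 4 libraries was nearest to that of MYC were NOVA1, ACKR3, SORBS2, ZBTB12 and SFXN2. The measure was the Euclidean distance of log2 CPM centred on each gene's mean, over genes averaging 100 normalized counts or more, and ran from 0.105 for NOVA1 to 0.175 for SFXN2. NOVA1, a neuronal splicing factor, had 196 and 208 normalized counts with RRM2 siRNA, against 532 and 502 with scrambled siRNA. ACKR3, an atypical chemokine receptor, had 341 and 362 with RRM2 siRNA, against 875 and 915 with scrambled siRNA. With 4 libraries in 2 groups, likeness here means little more than a fall of the same size.

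The other genes of the 2 families differed less. MYCN, the neuronal MYC paralog, had 0 and 3 counts with RRM2 siRNA and 0 and 3 with scrambled siRNA, and was not tested. MYCL, the third MYC gene, had 783 and 815 normalized counts with RRM2 siRNA, against 703 and 734 with scrambled siRNA. Its log2 fold change was 0.15 (SE 0.06, adjusted p = 0.0357 by edgeR), which passed in 5 of 12 alternatives. It did not pass by DESeq2 (adjusted p = 0.289), nor without either RRM2 siRNA replicate or scrambled siRNA replicate 1. MLXIPL, the carbohydrate-response factor that also pairs with MLX, had 278 and 260 normalized counts with RRM2 siRNA, against 316 and 368 with scrambled siRNA, a log2 fold change of -0.34 (SE 0.10, adjusted p = 0.00825 by edgeR). That call was lost by DESeq2 (adjusted p = 0.0887) and without scrambled siRNA replicate 2.

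Nearly all listed genes known to be activated by MYC were lower with RRM2 siRNA. Of 36 such genes, 34 were lower with RRM2 siRNA, 16 of them by more than 1.5-fold, 0 were higher and 2 did not pass by edgeR, beside 25.0% lower and 25.4% higher over all genes tested. The median log2 fold change was -0.50, beside -0.0019 over all genes tested, and 0 were higher at an unadjusted p under 0.05, by DESeq2 or by limma voom. CCND2, a G1 cyclin, had 73.4 and 62.0 normalized counts with RRM2 siRNA, against 152 and 160 with scrambled siRNA. MYBBP1A, a nucleolar protein, had 1453 and 1419 with RRM2 siRNA, against 2785 and 2577 with scrambled siRNA. In neither gene did the groups overlap, and the log2 fold changes were -1.20 (SE 0.17, adjusted p = 3.90e-05) and -0.90 (SE 0.05, adjusted p = 2.77e-09) by edgeR. The 2 genes that did not pass, named after their values were seen, were the cap-binding factor EIF4E and the hexokinase HK2, with log2 fold changes of -0.03 and 0.05. The list was written with earlier results of these data known and many of its genes also belong to ribosome production, so it is no independent evidence of a direction.

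The listed genes known to be repressed by MYC were mixed. Among the 11 tested, 5 passed as higher and 2 as lower, while 4 did not pass, with a median log2 fold change of 0.11, beside 25.4% higher and 25.0% lower over all genes tested. CDKN1A, the p21 inhibitor of cyclin-dependent kinases and also a p53 target, had 27631 and 26804 normalized counts with RRM2 siRNA, against 5386 and 5622 with scrambled siRNA. CDKN2B, the p15 inhibitor, had 306 and 356 with RRM2 siRNA, against 112 and 97.9 with scrambled siRNA. Both were far apart between groups, with log2 fold changes of 2.31 (SE 0.04, adjusted p = 7.74e-15) and 1.66 (SE 0.13, adjusted p = 8.42e-08) by edgeR. THBS1, the secreted inhibitor of angiogenesis, went the other way, at 6053 and 6577 with RRM2 siRNA, against 9610 and 9955 with scrambled siRNA, a log2 fold change of -0.63 (SE 0.04, adjusted p = 1.92e-08 by edgeR). PDGFRB, named after its values were seen, was the other lower gene, at -0.89 (SE 0.23, adjusted p = 0.00497 by edgeR), and it did not pass by DESeq2 (adjusted p = 0.0693).

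**Figure D4:**
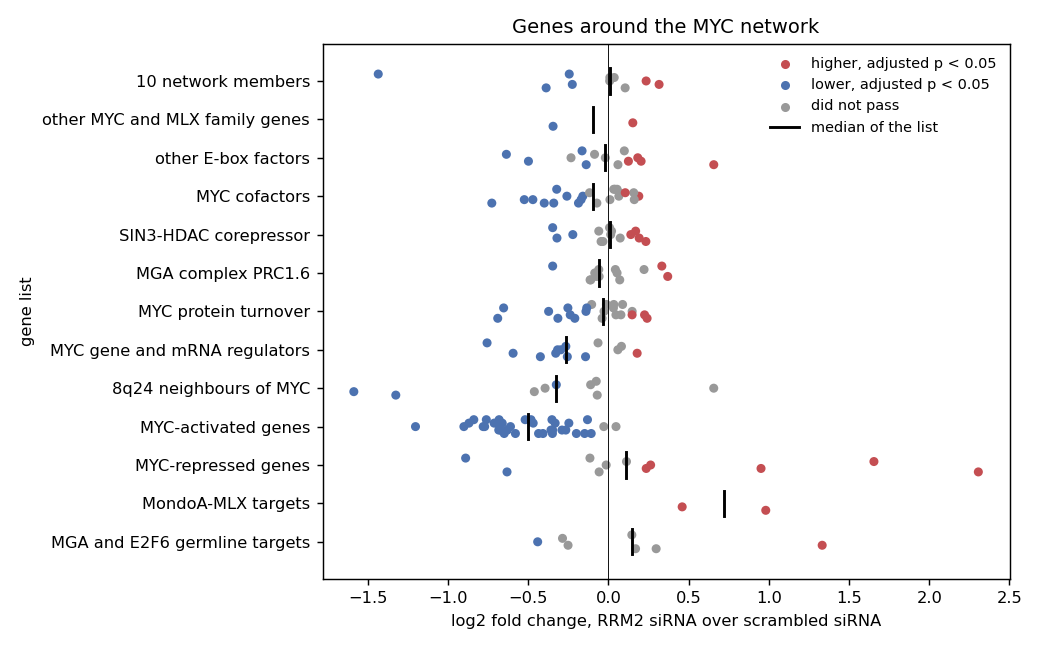
Each point is a tested gene of a list (rows), placed by its log2 fold change, RRM2 siRNA over scrambled siRNA, and coloured red where higher, blue where lower and grey where not passed at an adjusted p under 0.05; black ticks are list medians. The MYC-activated genes lie to the left with a median of -0.50, and most other lists straddle 0.

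The E-box itself was looked for in RefSeq promoters (GRCh38.p14), which run from 250 bases before to 50 after a gene's start. CACGTG reads the same on both strands, and it stood in 12.4% of the 11515 tested genes with a promoter there. It was in 15.1% of genes that were lower with RRM2 siRNA, in 11.3% of those that were higher and in 11.5% of those that did not pass. Of the MYC-activated genes, 18 of 29 with a promoter held it, or 62.1%, and 16 of these 18 were lower. The other 2 were EIF4E and HK2, so all genes of the list with a promoter but without the motif were lower as well. Of the 9 network genes with an entry, MXD4, MNT and MLX held it. Their promoter stretches are shown because they place the motif of the network in its own genes, with the E-box in capitals, 5′ to 3′ on the strand of the gene.
MXD4: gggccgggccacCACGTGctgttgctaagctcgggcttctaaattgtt
MNT: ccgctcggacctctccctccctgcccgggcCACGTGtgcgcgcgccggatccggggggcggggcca
MLX: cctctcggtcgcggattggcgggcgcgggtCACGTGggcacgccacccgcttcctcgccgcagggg
Counted from the RefSeq start that places each window, which is not the gene end printed above from the table, the motif starts 238 bases before in MXD4, 193 in MNT and 50 in MLX. The stretches are chr4:2262312-2262359 (-), chr17:2401218-2401283 (-) and chr17:42567020-42567085 (+). Of these 3 genes MXD4 rose, MNT fell and MLX did not pass, so carrying the motif went with no shared direction.

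For comparison, 4 MYC-activated genes are shown. They were chosen after their values were seen, for large falls, the motif before the start and an average of 1000 normalized counts or more. These 4 need not be the largest such falls of the list. SRM makes the polyamine spermidine, HSPE1 is a mitochondrial chaperonin, PPAT starts purine synthesis and SLC7A5 imports large amino acids. The E-box is in capitals.
SRM: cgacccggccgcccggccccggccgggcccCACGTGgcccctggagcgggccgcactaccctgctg
HSPE1: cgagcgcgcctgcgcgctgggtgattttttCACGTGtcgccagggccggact
PPAT: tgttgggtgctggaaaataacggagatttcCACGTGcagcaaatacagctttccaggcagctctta
SLC7A5: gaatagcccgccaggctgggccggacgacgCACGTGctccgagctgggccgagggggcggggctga
They lie at chr1:11060182-11060247 (-), chr2:197500327-197500378 (+), chr4:56435762-56435827 (-) and chr16:87869602-87869667 (-). SRM had 2204 and 2036 normalized counts with RRM2 siRNA, against 3261 and 3213 with scrambled siRNA. PPAT had 772 and 756 with RRM2 siRNA, against 1351 and 1255 with scrambled siRNA. In both genes the groups were well apart. The log2 fold changes were -0.61 for SRM, -0.48 for HSPE1, -0.77 for PPAT and -0.63 for SLC7A5. A match is only these letters in this window, and binding was not measured here.

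**Figure D5:**
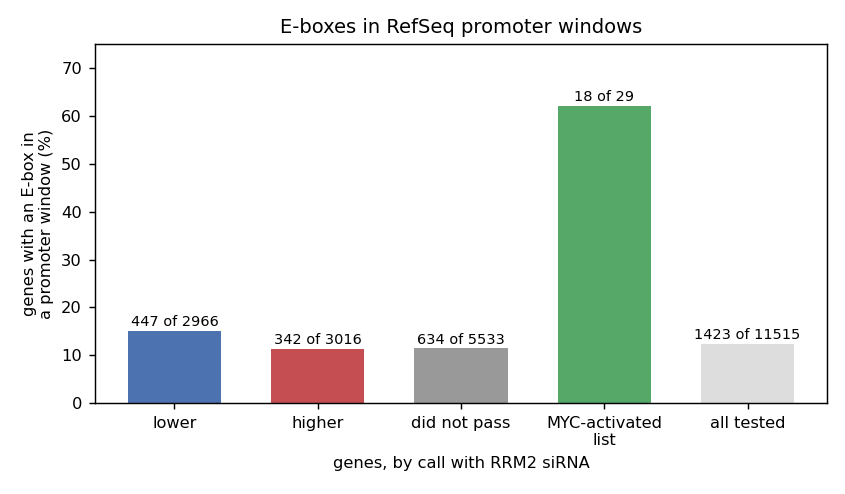
Bars give the percent of genes with a RefSeq promoter that holds CACGTG, on an axis from 0, for genes called lower, higher or neither with RRM2 siRNA against scrambled siRNA, for the MYC-activated genes and for all tested genes; the counts stand above the bars. The MYC-activated genes, most of which are also in the lower group, stand at 62.1%, and the 3 call groups lie between 11.3% and 15.1%.

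Of the cofactors that MYC recruits, 10 of 22 fell, 2 rose and 10 did not pass, with a median log2 fold change of -0.09. Over all genes tested, 25.0% fell and 25.4% rose. RUVBL1, an AAA ATPase of chromatin complexes, had 3014 and 3146 normalized counts with RRM2 siRNA, against 5157 and 5035 with scrambled siRNA. LEO1, of the PAF1 elongation complex, had 3211 and 3366 with RRM2 siRNA, against 4596 and 4861 with scrambled siRNA. Neither gene overlapped between groups, and the log2 fold changes were -0.73 (SE 0.04, adjusted p = 3.80e-09) and -0.52 (SE 0.04, adjusted p = 1.92e-07) by edgeR. CCNT1, the cyclin of the elongation kinase P-TEFb, rose by 0.19 (SE 0.04, adjusted p = 0.00220 by edgeR). SUPT5H, an elongation factor subunit, was at 0.11 (SE 0.04, adjusted p = 0.0473 by edgeR), a call that was lost without any one of the 4 libraries and by DESeq2 (adjusted p = 0.138).

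The corepressors of the antagonists did not move one way. Of 14 genes of the SIN3 and histone deacetylase complex, 4 rose, 3 fell and 7 did not pass, with a median log2 fold change of 0.01, and 25.4% of all genes tested rose and 25.0% fell. SIN3A, the scaffold that the MXD proteins and MNT bind, had 2603 and 2752 normalized counts with RRM2 siRNA, against 3481 and 3203 with scrambled siRNA. HDAC2, a deacetylase, had 3432 and 3721 with RRM2 siRNA, against 4614 and 4483 with scrambled siRNA. Both were lower in both RRM2 siRNA libraries, with log2 fold changes of -0.32 (SE 0.05, adjusted p = 8.03e-05) and -0.35 (SE 0.05, adjusted p = 1.63e-05) by edgeR. ING1, a histone reader, was at 0.23 and ARID4B, a SIN3 subunit, at 0.19 (adjusted p = 0.00919 and 0.00605 by edgeR). ING1 did not pass without RRM2 siRNA replicate 1 or by DESeq2 (adjusted p = 0.158), and ARID4B did not without scrambled siRNA replicate 2.

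Of 14 genes of the Polycomb complex that holds MGA, 2 rose, 1 fell and 11 did not pass, both shares below the 25.4% and 25.0% of all genes tested. RYBP, a subunit of several such complexes, had 1836 and 1762 normalized counts with RRM2 siRNA, against 1421 and 1436 with scrambled siRNA, a log2 fold change of 0.33 (SE 0.05, adjusted p = 3.24e-05 by edgeR). PCGF6, the PCGF subunit of this complex, was at 0.37 (SE 0.14, adjusted p = 0.0374 by edgeR), a call lost without RRM2 siRNA replicate 1 or either scrambled siRNA replicate and by DESeq2 (adjusted p = 0.197). HDAC2 was the lower gene, and 2 genes were lower without either scrambled siRNA replicate. Of 7 tested germline genes known to be kept silent by MGA and E2F6, 1 rose, 1 fell and 5 did not pass. The lower one was the meiotic cohesin STAG3 at -0.44 (SE 0.12, adjusted p = 0.00532 by edgeR), a call lost without scrambled siRNA replicate 1 and by DESeq2 (adjusted p = 0.0543). The higher one, named after its values were seen, was the meiotic gene MEI1 at 45.2 and 37.6 normalized counts with RRM2 siRNA, against 13.1 and 19.8 with scrambled siRNA, and 2 were higher without scrambled siRNA replicate 2.

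The 2 listed target genes of the MLXIP and MLX dimer both rose, where 25.4% of all genes tested rose. MLX and MLXIP themselves did not pass. TXNIP, which restrains glucose uptake and thioredoxin, had 23980 and 23048 normalized counts with RRM2 siRNA, against 18499 and 15687 with scrambled siRNA. ARRDC4, an arrestin-like relative of TXNIP, had 1573 and 1583 with RRM2 siRNA, against 848 and 750 with scrambled siRNA. Both lay above scrambled siRNA in both RRM2 siRNA libraries, with log2 fold changes of 0.46 (SE 0.06, adjusted p = 8.34e-06) and 0.98 (SE 0.06, adjusted p = 3.80e-09) by edgeR.

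Among 13 tested factors of the E-box or related motifs outside the network, 4 rose, 4 fell and 5 did not pass. Of all genes tested, 25.4% rose and 25.0% fell. EPAS1, the hypoxia factor HIF2A, had 572 and 549 normalized counts with RRM2 siRNA, against 361 and 351 with scrambled siRNA, a log2 fold change of 0.66 (SE 0.07, adjusted p = 1.94e-06 by edgeR). USF1, a ubiquitous E-box factor, rose by 0.20 (SE 0.05, adjusted p = 0.00243 by edgeR). ARNTL, the clock factor BMAL1, had 299 and 279 with RRM2 siRNA, against 420 and 398 with scrambled siRNA, at -0.50 (SE 0.08, adjusted p = 1.33e-04 by edgeR). Its partner CLOCK was at -0.16 (SE 0.07, adjusted p = 0.0488 by edgeR), a call lost without RRM2 siRNA replicate 2, without scrambled siRNA replicate 1 and by DESeq2 (adjusted p = 0.193). The count of lower genes fell to 2 without RRM2 siRNA replicate 1 or scrambled siRNA replicate 2 or with scaling by library size alone, and to 1 without RRM2 siRNA replicate 2 or by DESeq2.

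Among genes that act on MYC itself, lower calls outnumbered higher ones. Of 13 tested regulators of the MYC gene and mRNA, 9 fell, 1 rose and 3 did not pass, with a median log2 fold change of -0.27. The shares over all genes tested were 25.0% lower and 25.4% higher. IGF2BP3, which binds and stabilizes mRNAs such as that of MYC, had 536 and 515 normalized counts with RRM2 siRNA, against 919 and 856 with scrambled siRNA. HNRNPD, or AUF1, which binds AU-rich elements, had 2374 and 2421 with RRM2 siRNA, against 3636 and 3600 with scrambled siRNA. The groups of both were apart, with log2 fold changes of -0.76 (SE 0.06, adjusted p = 1.18e-07) and -0.59 (SE 0.04, adjusted p = 3.90e-08) by edgeR. CNBP, which binds a promoter element of MYC, rose by 0.18 (SE 0.04, adjusted p = 6.15e-04 by edgeR), and 2 genes of the list were higher without scrambled siRNA replicate 1.

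Of 22 genes of MYC protein turnover, 9 fell, 3 rose and 10 did not pass, with a median log2 fold change of -0.03, beside 25.0% lower and 25.4% higher over all genes tested. AURKA, a mitotic kinase known to shield N-MYC from degradation, had 594 and 560 normalized counts with RRM2 siRNA, against 916 and 946 with scrambled siRNA. SKP2, a ubiquitin ligase subunit that targets MYC, had 676 and 580 with RRM2 siRNA, against 1025 and 953 with scrambled siRNA. Both were lower in both RRM2 siRNA libraries, at -0.69 (SE 0.06, adjusted p = 1.72e-07) and -0.65 (SE 0.07, adjusted p = 1.81e-06) by edgeR. PPP2CA, the catalytic subunit of a phosphatase that acts on MYC, rose by 0.24 (SE 0.04, adjusted p = 1.33e-04 by edgeR), and USP37, a deubiquitinase of MYC, was at 0.23 (SE 0.06, adjusted p = 0.00670 by edgeR and 0.129 by DESeq2). DESeq2 called 1 gene of the list higher.

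MYC lies in a gene-poor stretch of 8q24 beside several long noncoding RNAs. Of 9 neighbours tested, 3 fell, 0 rose and 6 did not pass by edgeR, with a median log2 fold change of -0.32, beside 25.0% lower and 25.4% higher over all genes tested. At an unadjusted p under 0.05, 1 was higher, and DESeq2 and limma voom called 0 higher. PCAT1, a prostate cancer noncoding RNA, had 89.4 and 98.5 normalized counts with RRM2 siRNA, against 257 and 213 with scrambled siRNA, a log2 fold change of -1.32 (SE 0.15, adjusted p = 3.74e-06 by edgeR). PVT1, just downstream of MYC, had 380 and 387 with RRM2 siRNA, against 479 and 482 with scrambled siRNA, at -0.32 (SE 0.07, adjusted p = 0.00124 by edgeR). Both noncoding RNAs were lower in both RRM2 siRNA libraries, and the fall of PVT1 was the smaller. CASC11, just upstream of MYC and named after its values were seen, had 4.71 and 6.09 with RRM2 siRNA, against 13.1 and 19.8 with scrambled siRNA, at -1.59 (SE 0.45, adjusted p = 0.00809 by edgeR). This call of CASC11 was lost without RRM2 siRNA replicate 1 (adjusted p = 0.0723 by edgeR) and without scrambled siRNA replicate 2 (adjusted p = 0.132 by edgeR), DESeq2 gave it no adjusted p, and a minimum of 10 counts in each library removed it. The count of lower neighbours was 2 by DESeq2, with that minimum or without RRM2 siRNA replicate 1, and 5 without scrambled siRNA replicate 1.

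The 7-base words AAGTCCA and AGTCCAA were picked in an earlier search of these data, and the RRM2 transcript holds both. Of 4774 tested genes with either word in a coding transcript, 30.8% were lower and 23.2% were higher, while of 8963 genes with neither, 23.2% were lower and 29.2% were higher. MYC, MXI1, MXD4 and MLX hold neither word. MXD1 and MNT hold AAGTCCA, MAX, MXD3 and MLXIP hold AGTCCAA, and MGA holds both. The words came from these same data, and no share of lower genes was computed for AAGTCCA alone, which MXD1, MNT and MGA hold. The part of these words in the fall of those 3 genes was not tested.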

How the data were processed

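RNA of 2 RRM2 siRNA and 2 scrambled siRNA libraries of C4-2 cells was sequenced. The authors deposited estimated counts per gene, not normalized, made in Partek Flow (no version given); the aligner, annotation, genome build and strand setting are not stated in the labels or the paper. Of the values, 71.0% to 71.7% per library are whole numbers, and all were rounded. Positions overlapped RefSeq GRCh38.p14 for 99.8% of 24772 matched symbols. The 27 rows whose symbols a spreadsheet turned into dates were kept unnamed (0.161% to 0.172% of counts).

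Genes were filtered with filterByExpr, scaled by TMM and tested over 15840 genes with edgeR 4.0.16 (glmQLFit, glmQLFTest, R 4.3.3) and Benjamini-Hochberg adjustment, at an adjusted p under 0.05. SE is the absolute log2 fold change over the square root of F. Replicates differed by more than sampling noise (chi-square per degree of freedom 35.2 for RRM2 siRNA and 3.66 for scrambled siRNA, or 1.98 and 2.95 without structural RNA genes). Libraries of a group varied by 3.87% (common dispersion 0.0015). Lengths per kb are medians over GENCODE v29 basic coding transcripts, and promoters are from RefSeq GRCh38.p14.

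The alternatives tried were no filter or a minimum of 10 counts in each library, scaling by library size or by DESeq2 size factors, limma voom (limma 3.58.1), DESeq2 1.42.0, a replicate block, each library left out, no structural RNA genes, fold changes over 1.5 and 2, and no length correction. The longest transcript length was added after seeing the data. The members and gene lists were chosen with earlier results of these data known, and lists came from general knowledge. Named genes are the 10 members, RRM2, all genes of lists of up to 3, up to 2 rises and 2 falls of each longer list (largest change, adjusted p under 0.05, mean of at least 100 normalized counts), and the 5 genes nearest to MYC. KLK3, as a marker of the line, and the markers of other cells were named outside this rule, after their values were seen.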

Additional observations from a re-analysis of the deposited data

How the results depend on the processing

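Genes higher with RRM2 siRNA numbered 4029 and genes lower 3954. DESeq2 called 2586 higher and 2673 lower, and 584 higher at a fold change over 1.5, where edgeR called 935 higher and 831 lower. At a fold change over 2, 412 were higher and 256 were lower. Of the 10 network genes, 0 were higher and 1 was lower at either fold threshold. With libraries left out in turn, log2 fold changes ran from -0.021 to 0.035 for MXI1, from -0.0034 to 0.016 for MLX and from -0.033 to 0.10 for MLXIP, so their directions are not settled. Antagonists over MYC were 3.45 with RRM2 siRNA and 1.22 with scrambled siRNA with no length correction, and 2.31 and 0.794 with the longest transcript. The E-box share of genes higher by more than 1.5-fold was 8.23%, and that of genes lower by more than 1.5-fold was 14.7%. With a replicate block, 4157 genes were higher and 4094 lower, and 2 and 4 of the network genes; the replicate numbers did not pair the libraries (correlation of deviations 0.0062). The lone library of a group is assumed to vary like the others. No scaling shifted the median log2 fold change of all genes by 0.01.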
